A study of Rattus norvegicus with 25 samples.

Results

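The genes described here are 8 rat genes of the unfolded protein response and the amino acid stress response, followed over 7 groups of intestine samples taken after Roux-en-Y gastric bypass (RYGB) or sham surgery. They are defined by a list of Ensembl IDs, drawn up with earlier results of these data known, out of 32883 IDs in the count table: Hspa5 (ENSRNOG00000018294), Hsp90b1 (ENSRNOG00000026963), Calr (ENSRNOG00000003029), Pdia4 (ENSRNOG00000006228), Xbp1 (ENSRNOG00000010298), Atf4 (ENSRNOG00000017801), Ddit3 (ENSRNOG00000006789) and Asns (ENSRNOG00000007546). All 8 passed the filter on low counts in both cohorts, among 16146 IDs tested in the first of these cohorts and 14495 tested in that called OLE.

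Proteins that enter the endoplasmic reticulum (ER) are folded there by chaperones, and unfolded protein in the ER sets off the unfolded protein response. Its sensors IRE1, ATF6 and PERK raise the chaperones Hspa5 (BiP), Hsp90b1 (GRP94), Calr (calreticulin) and Pdia4 (a disulphide isomerase) and activate the transcription factor XBP1, on which Paneth cells of the intestine depend. PERK, and GCN2 when amino acids run short, phosphorylate eIF2 alpha, which raises translation of the transcription factor ATF4, whose targets include Ddit3 (CHOP) and Asns (asparagine synthetase).

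In the first cohort, the alimentary limb after bypass (RYGB_AL, food arriving from the stomach pouch) was set against the jejunum of sham rats (Sham_JEJU), and the common limb (RYGB_CL, beyond the point where bile joins) against sham ileum (Sham_IL), with 3 libraries in each group. The OLE cohort came from Otsuka Long-Evans Tokushima Fatty (OLETF) rats, an obese and diabetic strain. It held sections that the labels call glucotonic (Glucotonic_OLE) or non-glucotonic (Nonglucotonic_OLE), each from 4 numbered RYGB sources in 5 libraries, and the distal intestine of 3 numbered sham sources (Sham_OLE). The strain of the first cohort and the age, sex, diet and time after surgery in both cohorts were not stated in these sources. The labels do not say that each library of a group is a separate rat, so a p-value covers the spread between libraries, which may be technical.

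First-cohort libraries held 23.7 to 49.3 M counts (M for mega). OLE libraries held 18.1 to 25.6 M, of which ENSRNOG00000043866 alone took 35.5% to 52.6%. No member had fewer than 284 counts in a first-cohort library or 123 in an OLE sample. Levels are CPM, that is counts scaled to a common library size by TMM within a cohort, so they are not to be compared between cohorts or, without gene lengths, between genes. A gene was called at an adjusted p under 0.05 in edgeR's quasi-likelihood test, adjusted by Benjamini-Hochberg over all IDs tested. Only the 8 members carried symbols, so the labelled tissues were not checked against named markers. An index of 200 IDs high in Sham_IL and 200 high in Sham_JEJU, scaled to 0 at Sham_JEJU and 1 at Sham_IL, placed RYGB_AL at 0.0404 to 0.152, RYGB_CL at 0.41 to 0.782, Glucotonic_OLE at 0.663 to 0.872 and Nonglucotonic_OLE at 0.492 to 0.789. Sham_OLE 22 and 23 lay at 0.741 and 0.953, but Sham_OLE 4 lay at 0.0923, among the values of the alimentary limb, although its label is distal intestine.

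RefSeq promoters (build GRCr8, 250 bases before to 50 after the start site) were matched by symbol for 8 of 8 members and searched on both strands. The ER stress response element, through which ATF6 and NF-Y act, was read as CCAAT, any 9 bases, then CCACG. It was in 4 members, namely Hspa5, Hsp90b1, Calr and Xbp1, and in 22 of 33469 promoters of this length (0.0657%). The other 4 (Pdia4, also an ER chaperone, and Atf4, Ddit3 and Asns) had no match. The 5 matches are shown because few promoters hold this element. Each line reads 5′ to 3′ on the strand of the gene with up to 20 bases on either side. The element is in capitals, and a match on the opposite strand is seen as its reverse complement.
Hspa5, chr3:38452953-38453011, plus strand: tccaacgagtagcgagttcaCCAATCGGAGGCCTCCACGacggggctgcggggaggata
Hsp90b1, chr7:23012431-23012489, minus strand: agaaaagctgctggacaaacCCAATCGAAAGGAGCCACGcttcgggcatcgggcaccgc
Hsp90b1, chr7:23012327-23012385, minus strand: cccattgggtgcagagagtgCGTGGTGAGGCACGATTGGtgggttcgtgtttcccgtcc
Calr, chr19:40213117-40213173, plus strand: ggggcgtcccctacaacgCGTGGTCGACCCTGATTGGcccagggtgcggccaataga
Xbp1, chr14:84604538-84604596, plus strand: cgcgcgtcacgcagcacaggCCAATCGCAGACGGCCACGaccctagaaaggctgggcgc

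The last base of the element lay at -25 from the start site in Hspa5 and at -47 in Xbp1. Hsp90b1 held it in both orientations, from -176 to -158 and from -72 to -54, and Calr held it in the opposite orientation, from -232 to -214. Pdia4 had CCAAT at 3 places and CCACG at 1, but not at this spacing. The unfolded protein response element TGACGTG was found in Hspa5 and in no other member, and in 1.81% of all promoters (605). TGATG, any base, then AA, a form of the amino acid response element, was in 0 of 8 members and in 3.98% of all promoters (1332). No match here says only that these letters are not in this window. The full windows of Hspa5, which holds 2 of the elements (capitals), and of Atf4 and Asns, the members called in comparisons that include bypass samples, are shown for contrast. The windows of Atf4 and Asns held none of the 3 elements.
Hspa5, chr3:38452766-38453065, plus strand: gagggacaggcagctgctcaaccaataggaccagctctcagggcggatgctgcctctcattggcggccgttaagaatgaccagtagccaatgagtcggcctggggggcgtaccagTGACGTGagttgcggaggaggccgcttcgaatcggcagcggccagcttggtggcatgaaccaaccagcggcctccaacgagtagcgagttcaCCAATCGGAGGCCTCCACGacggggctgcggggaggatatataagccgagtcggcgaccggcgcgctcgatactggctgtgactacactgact
Atf4, chr7:113684431-113684730, plus strand: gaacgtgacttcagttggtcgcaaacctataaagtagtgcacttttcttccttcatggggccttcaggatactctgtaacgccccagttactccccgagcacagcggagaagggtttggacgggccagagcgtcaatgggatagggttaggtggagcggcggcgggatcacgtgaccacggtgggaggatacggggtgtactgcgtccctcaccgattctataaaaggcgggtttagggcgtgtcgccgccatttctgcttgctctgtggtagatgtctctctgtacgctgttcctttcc
Asns, chr4:36769366-36769665, minus strand: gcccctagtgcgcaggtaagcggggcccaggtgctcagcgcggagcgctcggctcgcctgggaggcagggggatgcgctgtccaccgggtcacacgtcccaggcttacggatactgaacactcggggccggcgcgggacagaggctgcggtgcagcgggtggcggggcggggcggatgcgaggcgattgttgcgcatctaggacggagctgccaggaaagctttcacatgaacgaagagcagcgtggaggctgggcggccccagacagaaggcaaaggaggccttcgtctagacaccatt

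The alimentary limb against sham jejunum asks what bypass changed in the segment that receives food first. Asns was higher in RYGB_AL and was the 1 of 8 members called, where 4.45% of all IDs were called higher and 3.21% lower. DESeq2 called 3 of 8 (Asns and Atf4 higher, Ddit3 lower), with 11.6% of all its tested IDs called. The groups did not overlap for 3 members higher in RYGB_AL (Hsp90b1, Atf4 and Asns; 13.4% of all IDs) and 1 lower (Ddit3; 13.1% of all IDs). The median log2 change of the 8 members was 0.35, and that of all IDs -0.01. In these pieces of whole intestine, fewer cells of a type and less RNA per cell cannot be told apart.

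Between the common limb and sham ileum, 0 of 8 members were called by edgeR and 0 by DESeq2, and 0 had an unadjusted p under 0.05. Across all IDs edgeR called 0% in either direction, DESeq2 called 0.576%, and 4.94% higher and 2.91% lower IDs had an unadjusted p under 0.05. Hspa5, Hsp90b1 and Atf4 were higher in RYGB_CL without overlap, 3 of 8 where 9.34% of all IDs were. The median log2 change was 0.36 over the members and 0.05 over all IDs.

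Whether surgery acted differently in the limbs was tested as the alimentary effect minus the common effect. None of the 8 was called by edgeR (0.508% of all IDs were higher and 0.0991% lower), and DESeq2 called 1, Ddit3 (3.4% of its IDs). At an unadjusted p under 0.05, Asns was the 1 member higher (5.9% of all IDs) and Ddit3 the 1 lower (6.65% of all IDs).

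Segments of the gut were also compared within each kind of surgery. Xbp1 and Atf4 were lower in Sham_IL than in Sham_JEJU, 2 of 8 called lower where 6.47% of all IDs were, and 0 called higher where 2.75% were. DESeq2 called 4 lower (Hspa5, Xbp1, Atf4 and Ddit3; 14.8% of its IDs), and 5 of 8 were lower without overlap (Hspa5, Calr, Xbp1, Atf4 and Ddit3; 17.8% of all IDs). After bypass, Atf4 was the 1 member called lower in RYGB_CL than in RYGB_AL (5.17% of all IDs lower, 4.15% higher). DESeq2 also called Hspa5 (2 of 8; 16.2% of its IDs), and all members but Calr and Ddit3 were lower without overlap (6 of 8; 16.9% of all IDs).

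Among the ER chaperones, Hspa5, the main Hsp70 of the ER lumen, stood at 836, 841 and 1309 CPM in RYGB_AL and at 504.5, 866 and 912 CPM in Sham_JEJU. It stood at 494, 596 and 674 CPM in RYGB_CL and at 358, 414 and 490.3 CPM in Sham_IL. The jejunal groups overlapped and the ileal groups were parted by a narrow gap. The log2 change after bypass was 0.39 in the alimentary limb (95% interval -0.19 to 0.97, adjusted p = 0.438, edgeR) and 0.48 in the common limb (interval -0.09 to 1.06, adjusted p = 0.674, edgeR). From Sham_JEJU to Sham_IL it was -0.86 (SE 0.27, adjusted p = 0.0642, edgeR).

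Hsp90b1, the Hsp90 of the ER, stood at 648, 667.5 and 815 CPM in RYGB_AL and 295, 589.7 and 646 CPM in Sham_JEJU. In RYGB_CL it was at 454, 494 and 536 CPM and in Sham_IL at 350.4, 351 and 440.5 CPM. Every RYGB library lay above every sham library of the matching segment, in the alimentary limb by a margin of under 1% of the level. The log2 changes were 0.48 (interval -0.08 to 1.04, adjusted p = 0.313, edgeR) and 0.38 (interval -0.18 to 0.94, adjusted p = 0.711, edgeR). Without Sham_JEJU 14-28 the change in the alimentary limb was 0.19.

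Calr, which buffers calcium and folds glycoproteins, ranged from 657 to 1097 CPM in RYGB_AL, 508 to 996 CPM in Sham_JEJU, 484 to 669.8 CPM in RYGB_CL and 397 to 504 CPM in Sham_IL. Its log2 change was 0.08 in the alimentary limb (interval -0.51 to 0.68) and 0.31 in the common limb (interval -0.29 to 0.90). Pdia4 ranged from 193 to 297 CPM, 109 to 233 CPM, 139 to 189.8 CPM and 101 to 146 CPM in the same groups. Its changes were 0.32 (interval -0.29 to 0.93) and 0.50 (interval -0.11 to 1.11). Both genes overlapped in both comparisons, and all 4 intervals include 0 and have upper ends of 0.68 to 1.11, so equal levels were not shown.

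Single libraries moved these values. Without RYGB_AL 2-3 the change in the alimentary limb was 0.11 for Hspa5 and 0.066 for Pdia4, and without Sham_JEJU 14-28 it was 0.15 and 0.037. Sham_JEJU 14-28 was the lowest jejunal library for the 4 chaperones and for Asns, and the highest for Xbp1 and Atf4. Without it edgeR called 4 members lower in Sham_IL (Hspa5, Calr, Pdia4 and Xbp1), where 6.53% of all IDs were, with Hspa5 at a log2 change of -1.06 (adjusted p = 0.0292, edgeR). In RYGB_AL, library 2-3 was the highest for 7 of 8 members and the lowest for Xbp1.

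**Figure D1:**
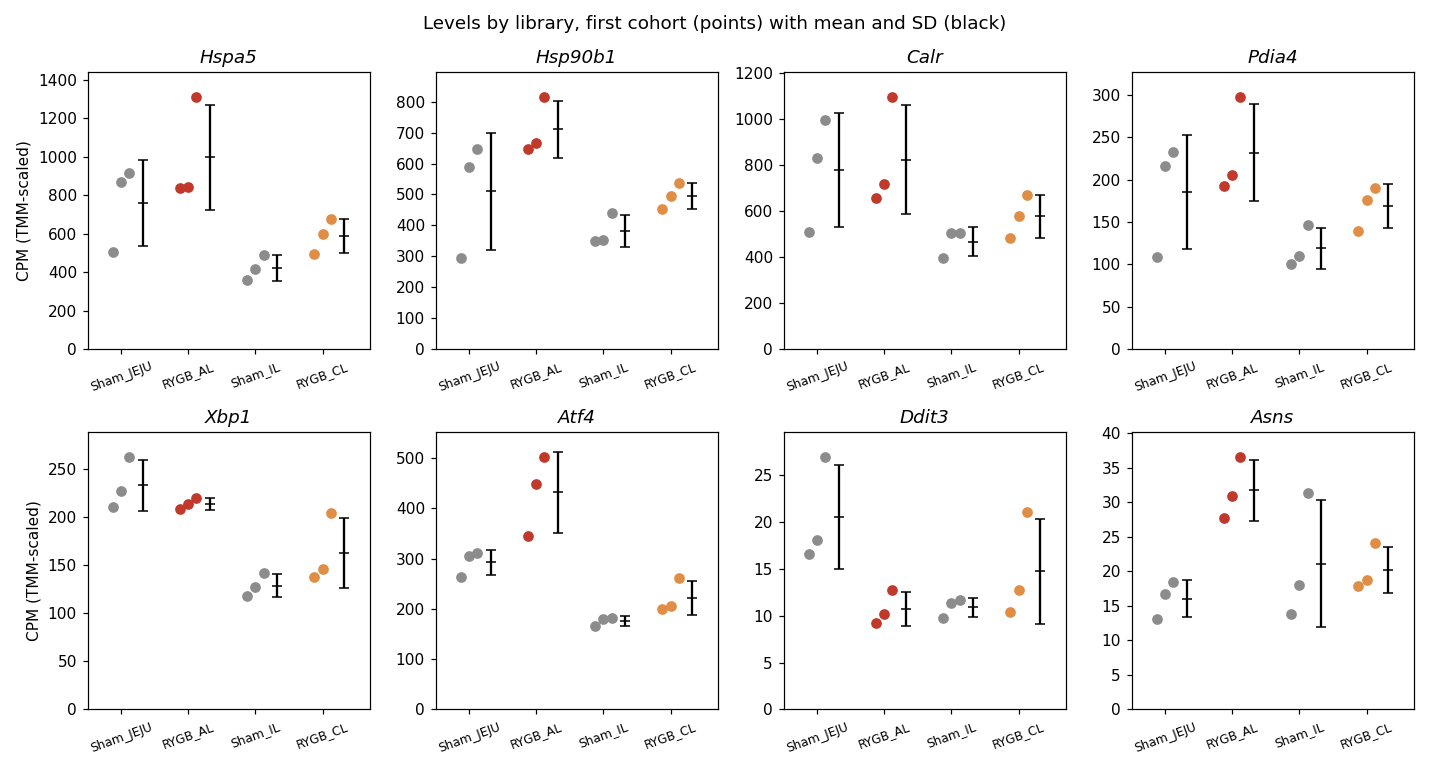
Levels of the 8 members in the first cohort, in TMM-scaled CPM on linear axes, by group. Points are the 3 libraries of a group, with the mean and SD in black. Atf4 and Asns lie higher in RYGB_AL than in Sham_JEJU and Ddit3 lies lower, each without overlap.

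Xbp1, counted here without regard to the splicing that activates it, was lower in sham ileum than in sham jejunum. It stood at 211, 227 and 262 CPM in Sham_JEJU and at 118, 127 and 142 CPM in Sham_IL. The groups were far apart, and the log2 change was -0.86 (SE 0.17, adjusted p = 0.0145, edgeR; DESeq2 adjusted p = 0.000212). Segments with the same sham number, which were not taken as pairs, differed by -0.89 (14-28), -0.83 (15-30) and -0.84 (8-15). The call was lost without Sham_IL 15-30 (adjusted p = 0.0772, edgeR) or Sham_IL 8-15 (adjusted p = 0.0694, edgeR).

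After bypass Xbp1 was at 208, 214 and 219.8 CPM in RYGB_AL, within or just below the Sham_JEJU range (log2 -0.13, interval -0.50 to 0.25, adjusted p = 0.725, edgeR). In RYGB_CL it was at 138, 146 and 204 CPM, where library 15-29 stood above the rest (log2 against Sham_IL 0.34, interval -0.04 to 0.71, adjusted p = 0.657, edgeR). That library also had the lowest position index of its group, 0.41, nearest to jejunum. The part of position in this value was not tested. RYGB_CL against RYGB_AL gave -0.39 (interval -0.77 to -0.02, adjusted p = 0.152, edgeR), which was not called.

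Atf4, the transcription factor shared by ER stress and amino acid shortage, stood at 345, 449 and 502 CPM in RYGB_AL and at 264, 304.5 and 311 CPM in Sham_JEJU. All RYGB_AL libraries lay above all Sham_JEJU libraries. The log2 change of 0.56 (SE 0.18, interval 0.17 to 0.95) missed the threshold in edgeR (adjusted p = 0.0789) and passed it in DESeq2 (adjusted p = 0.0345). In edgeR it passed without RYGB_AL 1-1 (log2 0.70, adjusted p = 0.0408) and missed with any other library left out, up to an adjusted p of 0.291 without RYGB_AL 2-3 (log2 0.41).

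In the common limb Atf4 stood at 199.5, 206 and 261 CPM, against 165, 180.4 and 182 CPM in Sham_IL. The groups again did not overlap, but the change was small (log2 0.34, SE 0.18, interval -0.05 to 0.72, adjusted p = 0.660, edgeR). The alimentary effect minus the common effect was 0.22 (interval -0.32 to 0.77, adjusted p = 0.780, edgeR), so a difference between the limbs was not shown. The order of the group means was RYGB_AL, Sham_JEJU, RYGB_CL and Sham_IL, the same as for each of the 4 chaperones.

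Atf4 fell by 0.74 on the log2 scale from Sham_JEJU to Sham_IL (SE 0.18, adjusted p = 0.0283, edgeR) and by 0.96 from RYGB_AL to RYGB_CL (SE 0.18, adjusted p = 0.0103, edgeR). Segments with the same number, which were not taken as pairs, differed by -0.77, -0.76 and -0.68 in sham rats and by -0.74, -0.78 and -1.33 after bypass. The sham call was lost with any 1 of the 6 sham libraries left out (adjusted p 0.0517 to 0.119, edgeR). The call after bypass was kept with any 1 library of these limbs left out (adjusted p 0.00704 to 0.0468, edgeR) and lost when only these 2 groups were fitted (adjusted p = 0.0571, edgeR).

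Ddit3, which encodes the stress factor CHOP downstream of ATF4, went the opposite way in the alimentary limb. It stood at 9.17, 10.2 and 12.7 CPM in RYGB_AL (293, 345 and 524 counts) and at 16.6, 18 and 26.9 CPM in Sham_JEJU (632, 493 and 1089 counts). No RYGB_AL library reached the lowest Sham_JEJU library. The log2 change of -0.94 (SE 0.27, interval -1.53 to -0.34) missed the threshold in edgeR (adjusted p = 0.0577) and passed it in DESeq2 (adjusted p = 0.0185).

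In RYGB_CL Ddit3 stood at 10.3, 12.7 and 21.1 CPM and in Sham_IL at 9.73, 11.3 and 11.6 CPM. The groups overlapped, and RYGB_CL 1-1 held the high value (log2 0.43, SE 0.27, adjusted p = 0.696, edgeR). The alimentary effect minus the common effect was -1.37 (SE 0.39, interval -2.21 to -0.53), with an unadjusted p of 0.00386 and an adjusted p of 0.144 in edgeR and an adjusted p of 0.0366 in DESeq2. Without RYGB_CL 1-1 it was -1.02 (adjusted p = 0.194, edgeR). Sham_IL was itself below Sham_JEJU (log2 -0.91, SE 0.27, adjusted p = 0.0559, edgeR), so RYGB_AL, jejunal by the position index, held Ddit3 within the range of Sham_IL or close to it.

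Asns, the enzyme that makes asparagine and a standard readout of ATF4, rose in the alimentary limb. It stood at 27.7, 30.9 and 36.5 CPM in RYGB_AL and at 13.1, 16.7 and 18.4 CPM in Sham_JEJU, with no overlap. The log2 change was 0.98, about 1.97-fold (SE 0.27, interval 0.39 to 1.57, adjusted p = 0.0479, edgeR; DESeq2 adjusted p = 0.0137). The call sat at the threshold: with any 1 of the 6 libraries left out it was lost, at log2 changes of 0.84 (without RYGB_AL 2-3, adjusted p = 0.186, edgeR) to 1.09 (without Sham_JEJU 8-15, adjusted p = 0.0795, edgeR).

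Elsewhere in the first cohort Asns showed no such step. It stood at 17.8, 18.8 and 24 CPM in RYGB_CL and at 13.8, 18 and 31.4 CPM in Sham_IL (log2 -0.06, interval -0.65 to 0.53, adjusted p = 0.961, edgeR). Sham_IL 15-30 was higher than the other 5 sham libraries of this cohort. The alimentary effect minus the common effect was 1.04 (SE 0.38, unadjusted p = 0.0184, adjusted p = 0.276, edgeR).

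**Figure D2:**
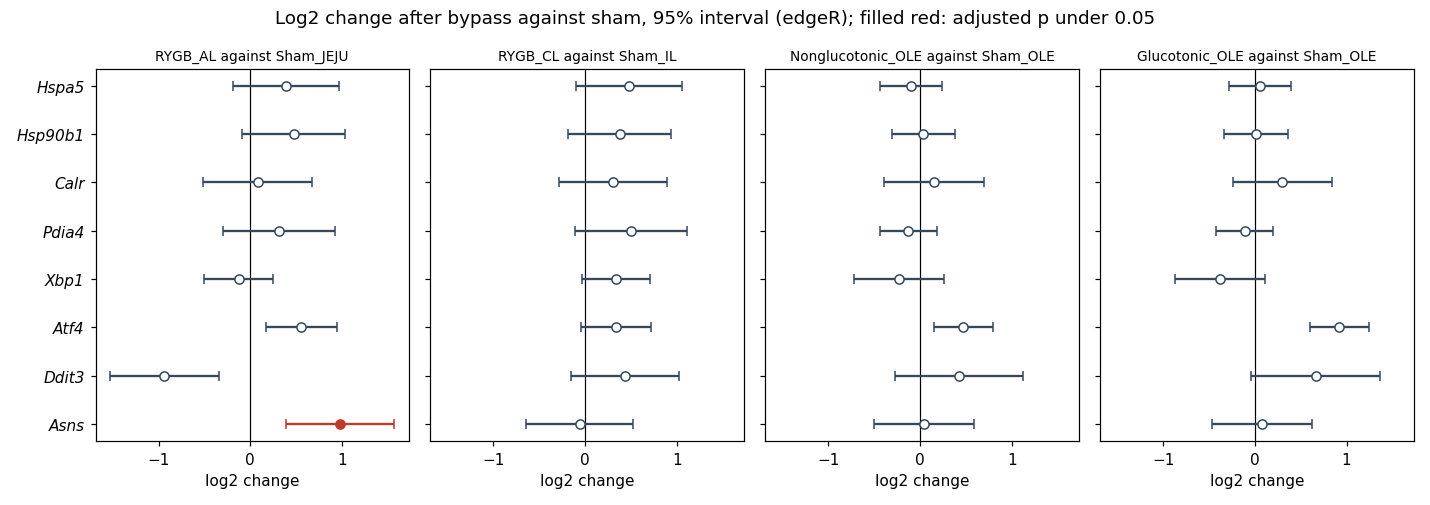
Log2 change of the 8 members against sham in 4 comparisons, with 95% intervals from edgeR, on a common axis. The filled red point, Asns in the alimentary limb, is the 1 value with an adjusted p under 0.05. The estimates of Atf4, Hsp90b1 and Calr lie above 0 in all 4 panels, and the OLE panels share their sham samples.

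Ratios of counts within a library need no scaling. RYGB_AL held 33.7, 39.4 and 49 Atf4 counts per Ddit3 count, against 11.3, 15.9 and 17.2 in Sham_JEJU. RYGB_CL held 9.76, 15.7 and 25.2 and Sham_IL 14.2, 16 and 18.5, which overlapped. Asns counts per Ddit3 count were 2.71, 2.87 and 3.37 in RYGB_AL and 0.621, 0.724 and 1.11 in Sham_JEJU. They were 0.846, 1.81 and 1.88 in RYGB_CL and 1.19, 1.59 and 3.23 in Sham_IL. The value of Sham_IL 15-30, 3.23, lay within the RYGB_AL range, as did that of Sham_OLE 22, 2.78. These ratios were formed after the levels had been seen and carry no test.

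**Figure D3:**
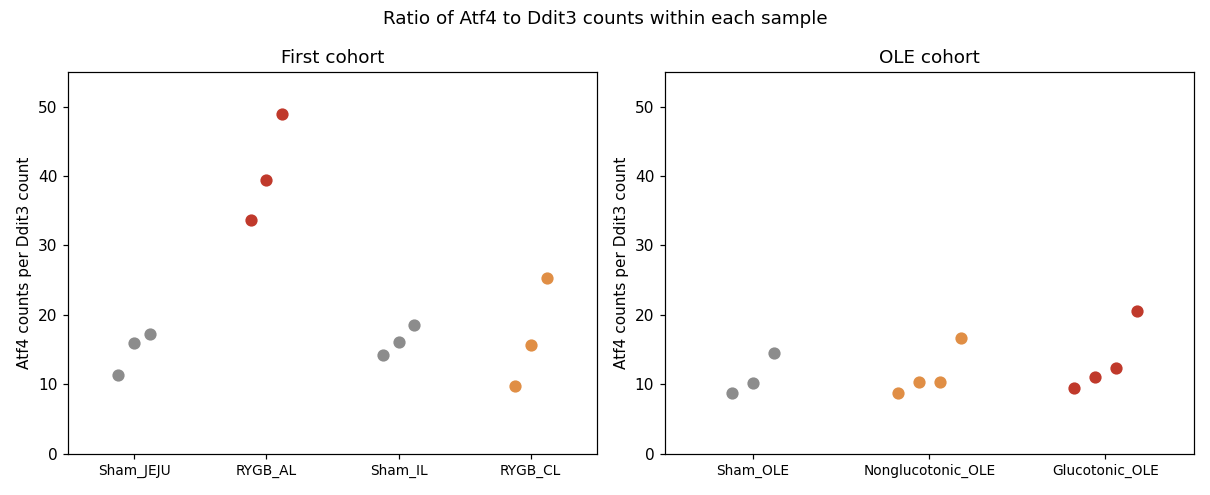
Atf4 counts per Ddit3 count in each sample, on linear axes from 0, for the first cohort (left) and the OLE cohort (right). The 3 RYGB_AL libraries lie at 33.7 to 49, and the highest value in any other group is 25.2.

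In the OLE cohort edgeR called none of the 8 members in any of 3 comparisons. For glucotonic sections against sham distal intestine the background was 0.0276% of IDs called higher and 0.0069% lower, and DESeq2 called 1 member, Atf4 (3.21% of its IDs). For non-glucotonic sections against sham it was 0% in either direction, and DESeq2 called 0 members (0.19% of its IDs). For glucotonic against non-glucotonic sections it was again 0% in either direction, and DESeq2 called 0 members (0.0122% of its IDs). Atf4 was in each comparison the 1 member higher at an unadjusted p under 0.05 (7.7%, 2.58% and 1.63% of all IDs in that order) and the 1 member higher without overlap (6.02%, 2.7% and 1.48%). The comparisons share samples, so these are not separate observations.

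Atf4 levels formed a graded order in these sections. Atf4 stood at 79.8, 85.9 and 113 CPM in Sham_OLE, at 117, 126, 132 and 140.2 CPM in Nonglucotonic_OLE and at 157, 175, 178 and 191 CPM in Glucotonic_OLE. Neighbouring groups did not overlap, and number 4 of the sham group lay just under the lowest non-glucotonic sample. The means were 92.8 ± 17.4 CPM (SD, n = 3), 129 ± 9.71 CPM (SD, n = 4) and 175 ± 14.1 CPM (SD, n = 4). As a share of Hspa5 counts in the same sample, Atf4 was 28.2% to 30.6% in Sham_OLE, 37.5% to 47.0% in Nonglucotonic_OLE and 46.4% to 59.0% in Glucotonic_OLE, where both bypass groups lay above sham and overlapped each other. In the first cohort this share did not part bypass from sham. It was 38.3% to 53.4% in RYGB_AL and 30.5% to 61.6% in Sham_JEJU. In RYGB_CL it was 29.6% to 43.8%, and in Sham_IL 36.8% to 46.2%. Like the ratios above, this share was formed after the levels had been seen and carries no test.

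Against sham, the log2 change of Atf4 in glucotonic sections was 0.92, about 1.89-fold (SE 0.15, interval 0.59 to 1.24). Its unadjusted p of 5.7e-05 ranked 13 of 14495 IDs, and the adjusted p was 0.0602 (edgeR) and 8.79e-07 (DESeq2). It passed the threshold in 6 of 15 alternatives and missed it in 9. Among the 6 was a setting added after seeing the data, without number 19 and Sham_OLE 4, where the Atf4 change was 1.03. In edgeR it passed without Sham_OLE 4 (log2 1.07, adjusted p = 0.0205), without both sections of number 19 (log2 0.87, adjusted p = 0.0116), with the libraries of number 13 not summed, which counts that number as 2 replicates (log2 0.92, adjusted p = 0.0307), and with no filter on low counts (log2 0.95, adjusted p = 0.0436). It missed when only these groups were fitted (adjusted p = 0.175, edgeR), and leaving out 1 sample at a time gave adjusted p values of 0.0205 to 0.236 (edgeR). In non-glucotonic sections the change was 0.47 (SE 0.15, interval 0.15 to 0.79, adjusted p = 0.682, edgeR; DESeq2 adjusted p = 0.216).

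Sequencing lane moved with these groups. The 3 Sham_OLE libraries were all from lane 7, which held 1 of the 5 glucotonic and 1 of the 5 non-glucotonic libraries, both of number 13. With lane 7 as a covariate and these libraries not summed, the glucotonic change against sham was 0.70 (adjusted p = 0.440, edgeR). Within lane 7, with libraries not summed, Atf4 stood at 154 CPM in the glucotonic and 111 CPM in the non-glucotonic library, against 79.1, 86.9 and 112 CPM in Sham_OLE. The glucotonic library was above the sham libraries of its lane, and the non-glucotonic library lay within their range. With 1 library per bypass group in lane 7, both of number 13, lane and group cannot be told apart in the other bypass libraries.

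Glucotonic against non-glucotonic sections gave 0.45 for Atf4 (SE 0.13, interval 0.15 to 0.74, unadjusted p = 0.00639 and rank 40, adjusted p = 0.999981, edgeR). Sections of one number differed by 0.26 (13), 0.32 (16), 0.60 (18) and 0.60 (19) on the log2 scale, higher in the glucotonic section in 4 of 4. Ddit3 was likewise higher in 4 of 4 (0.16 to 0.33), and Xbp1 was lower in 4 of 4 (-0.33 to -0.08). The sections of numbers 13 and 16 shared their lanes. Those of 18 (glucotonic lane 4, non-glucotonic lane 5) and of 19 (lanes 6 and 5) did not. The part of lane in these differences was not tested. With the replicate number as a block, the adjusted p of Atf4 was 0.101 (edgeR), which did not change its call, and 29 IDs were called where 0 were without the block. With libraries not summed the groups overlapped, since a non-glucotonic library of number 13 in lane 4 held 163 CPM and the glucotonic library of number 13 in lane 7 held 154 CPM.

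**Figure D4:**
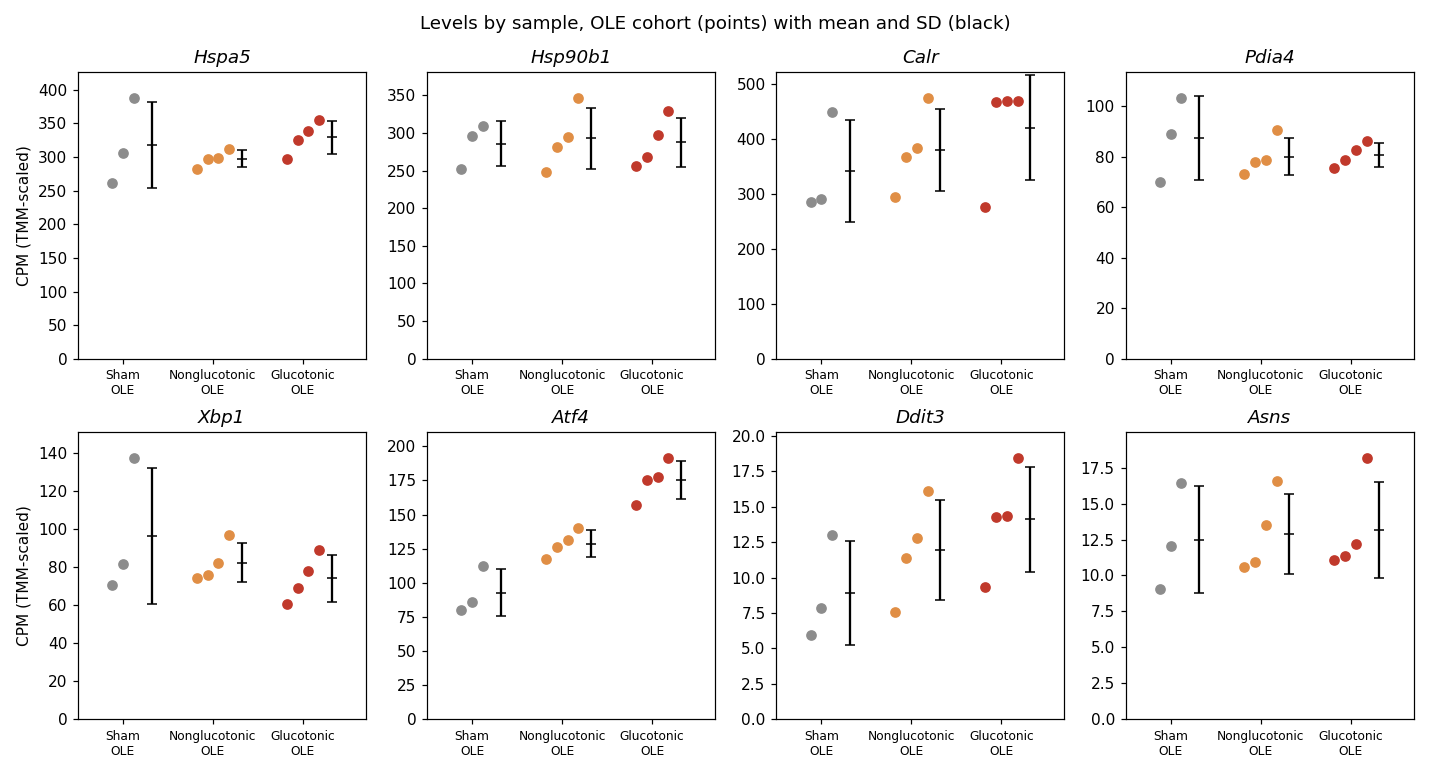
Levels of the 8 members in the OLE cohort, in TMM-scaled CPM on linear axes, by group. Points are 3 Sham_OLE samples and 4 samples of each bypass group (libraries of number 13 summed), with the mean and SD in black. Atf4 rises stepwise from 79.8 CPM in the lowest sham to 191 CPM in the highest glucotonic sample, and the groups overlap for the other 7 members.

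Asns did not step up with Atf4 in the OLETF sections. It stood at 11.1, 11.3, 12.2 and 18.2 CPM in Glucotonic_OLE, at 10.6, 10.9, 13.5 and 16.6 CPM in Nonglucotonic_OLE and at 9.03, 12 and 16.4 CPM in Sham_OLE. The 3 groups covered nearly the same range. Glucotonic sections against sham gave a log2 change of 0.08 with an interval of -0.47 to 0.62 (adjusted p = 0.904, edgeR). This interval overlaps that of the alimentary limb, 0.39 to 1.57. A difference between the cohorts was not tested, as the segments also differ and the strain of the first cohort was not stated.

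Ddit3 was higher by estimate in bypass sections of the OLETF rats, with all groups overlapping. It stood at 9.35, 14.3, 14.3 and 18.4 CPM in Glucotonic_OLE, at 7.57, 11.4, 12.8 and 16.1 CPM in Nonglucotonic_OLE and at 5.92, 7.84 and 13 CPM in Sham_OLE. The log2 change against sham was 0.66 in glucotonic sections (SE 0.32, interval -0.04 to 1.36, adjusted p = 0.324, edgeR) and 0.42 in non-glucotonic sections (SE 0.32, interval -0.27 to 1.12, adjusted p = 0.827, edgeR). The lowest bypass sample in both groups was number 19 and the highest sham sample was number 4. With both of these left out, a setting added after seeing the data, edgeR called Calr (log2 0.69, adjusted p = 0.00875), Atf4 (log2 1.03, adjusted p = 0.00131) and Ddit3 (log2 1.18, adjusted p = 0.0031) in glucotonic sections, along with 4025 IDs in all (14.1% of IDs higher and 13.6% lower). Number 19 and Sham_OLE 4 were the same extremes for Calr, so leaving them out had to widen the differences of Ddit3 and Calr. Sham_OLE 4 was also the highest sham sample for Atf4. No conclusion is drawn from these calls.

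None of the chaperones was called between OLE groups, and all of them overlapped. Hspa5 stood at 297, 324.5, 338 and 355 CPM in Glucotonic_OLE, at 281, 298, 299 and 312 CPM in Nonglucotonic_OLE and at 261, 305 and 388 CPM in Sham_OLE. Glucotonic sections against sham gave 0.05 for Hspa5 (interval -0.29 to 0.39), 0.01 for Hsp90b1 (interval -0.34 to 0.36), -0.11 for Pdia4 (interval -0.43 to 0.20) and 0.30 for Calr (interval -0.25 to 0.84). The intervals of Hspa5, Hsp90b1 and Pdia4 lie below that of Atf4 in the same comparison (0.59 to 1.24), and the interval of Calr overlaps it.

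Xbp1 stood at 60.2, 69, 77.8 and 88.9 CPM in Glucotonic_OLE, at 74.2, 75.9, 81.9 and 96.5 CPM in Nonglucotonic_OLE and at 70.5, 81.6 and 137 CPM in Sham_OLE. All 3 groups overlapped (glucotonic against sham, log2 -0.38, interval -0.87 to 0.10, adjusted p = 0.403, edgeR). The high sham value belonged to Sham_OLE 4, which was the highest sham sample for 7 of 8 members and the lowest for Asns. This sample lay near sham jejunum on the position index, whose part in these values was not tested. Without it the glucotonic change against sham was -0.05 for Xbp1, 0.20 for Hspa5 and 0.53 for Calr.

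**Figure D5:**
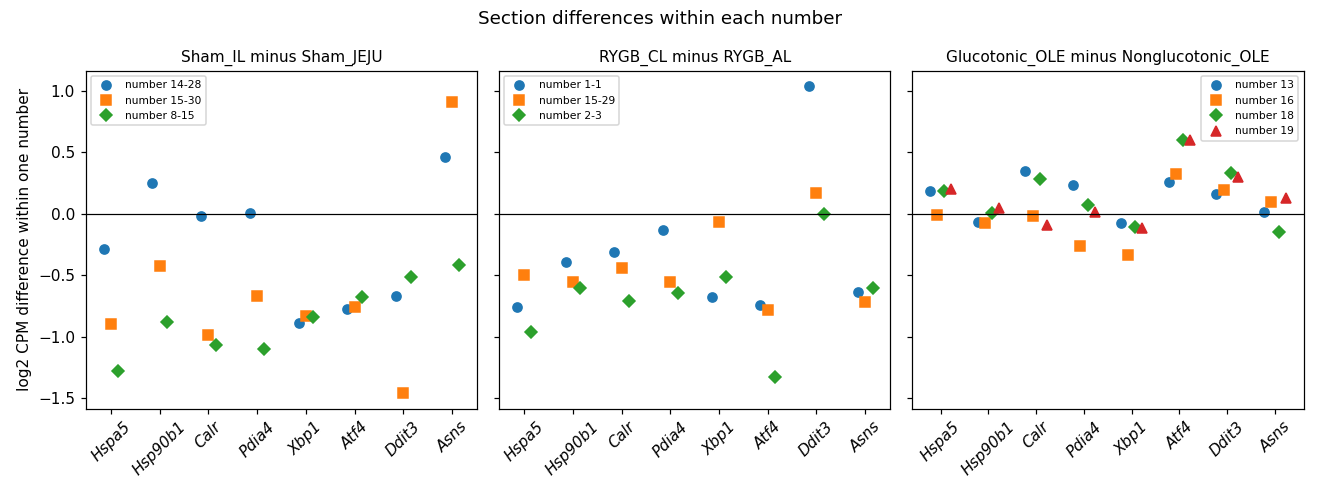
Difference in log2 CPM between segments or sections that share a number, for each member, in sham rats (left), after bypass (middle) and in the OLE cohort (right). Each symbol is 1 number, and the line marks 0. Atf4, Hspa5, Calr and Xbp1 lie below 0 in all 6 first-cohort numbers. In 4 of 4 OLE numbers Atf4 and Ddit3 lie above 0 and Xbp1 lies below 0. The share of all IDs with such agreement in sign was not counted.

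Among themselves the members varied differently in each cohort. Over the 12 libraries of the first cohort, Pearson r of log2 CPM was 0.84 to 0.957 among the 4 chaperones (6 pairs), 0.654 to 0.834 between Atf4 and the chaperones, and 0.444 to 0.707 between Asns and the chaperones. Over the 11 OLE samples these ranges were 0.285 to 0.736, -0.019 to 0.449 and -0.776 to -0.316. Ddit3 ran with the chaperones at -0.023 to 0.378 in the first cohort and at 0.146 to 0.907 in the OLE cohort. The points share segment, surgery and, in part, number, so these values describe the samples at hand.

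Outside the set, the IDs most like Hspa5 over the 12 libraries were ENSRNOG00000014201 (r 0.993, and 0.768 over the OLE samples) and ENSRNOG00000046345 (r 0.986 and 0.736). The nearest member, Pdia4, ranked 155. The IDs most like Asns were ENSRNOG00000057443 (r 0.935) and ENSRNOG00000038990 (r 0.928), which did not pass the low-count filter in the OLE cohort, and its nearest member, Hsp90b1, ranked 473.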

How the data were processed

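RNA was extracted with a Qiagen kit and sequenced from strand-marking libraries depleted of rRNA, per the labels' protocols. The submitters' processing notes name FastQC, STAR and rat build rn6. Counting tool, annotation and strand setting: not given in the sources used here, so reads of overlapping, antisense or near-identical genes may be shared with a member. The authors deposited raw whole-number counts per Ensembl ID.

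Symbols came with the IDs that define the set. No reference table held any of the 32883 IDs, so the lists of other stress genes and of cell type markers were not used. The genes named are the 8 members in every comparison, plus the 2 IDs most like Hspa5 and Asns. Members and lists were chosen with earlier results of these data known.

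The 2 libraries of number 13 in a group were summed. In the labels the glucotonic libraries of number 13 also share their second number, but the non-glucotonic ones do not. The latter may be different pieces, so lane and piece cannot be told apart between them. Each cohort was fitted with edgeR 4.0.16 (R 4.3.3) over all its groups: filterByExpr (minimum count 10, total 15), TMM, robust quasi-likelihood test, Benjamini-Hochberg adjustment. DESeq2 1.42.0 was an alternative. Log2 CPM used a prior count of 2. Position index IDs were those with the lowest p between sham segments, members left out. The same sham libraries set 0 and 1, so this choice of IDs could draw the other groups inward. The index was taken on libraries of both cohorts scaled together, so OLE values could be shifted by whatever else sets the cohorts apart. The fit was also run on counts simulated from its own estimates of spread, with independent libraries. Such data cannot show the effect of shared numbers, lanes or outlying samples. No libraries of a group were near-identical (lowest chi-square per degree of freedom 16.3). Deviations of OLE sections with one number correlated at r of 0.341 to 0.811, so the number was added as a block in an alternative to the main fit, which has none, though r between different numbers reached 0.444. Alternatives are given in the closing section.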

Additional observations from a re-analysis of the deposited data

Results flagged for a closer look

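In Glucotonic_OLE, number 19 lay far from the other numbers for 2 members. Calr stood at 276 CPM there, and its nearest value was 467 CPM. Asns stood at 18.2 CPM, and its nearest value was 12.2 CPM. In each case the gap filled more of the group's range than Dixon's 95% limit for 4 samples. Such a sample was found in 2 of 16 sets of 4 values, where chance gives about 1 in 20, and the sets reuse the same sections. The non-glucotonic section of number 19 was likewise the lowest of its group for Calr, at 295 CPM, and the highest for Asns, at 16.6 CPM. Glucotonic_OLE 19 was the 1 library from lane 6, and the part of lane in these values was not tested.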

How the results depend on the processing

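Of 64 member values (8 genes in 8 comparisons), 17 changed sign under some alternative, in 50 of 848 alternative values, and 0 of the 4 called values did. The cause was not tested.

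DESeq2 called 3 members for RYGB_AL against Sham_JEJU, 1 for the limb difference, 4 for Sham_IL against Sham_JEJU, 2 for RYGB_CL against RYGB_AL and 1 for Glucotonic_OLE against Sham_OLE. With only the groups compared in the fit, 0 were called for RYGB_CL against RYGB_AL and 3 for Sham_IL against Sham_JEJU, where Ddit3 joined (log2 -0.90, adjusted p = 0.0488, edgeR). Glucotonic_OLE against Sham_OLE had 1 member called (Atf4) with no filter on low counts, 1 with the libraries of number 13 apart and 1 without number 19. Leaving out 1 library at a time gave 0 to 1 called members for RYGB_AL against Sham_JEJU and for Glucotonic_OLE against Sham_OLE, 0 to 4 for Sham_IL against Sham_JEJU and 1 to 2 for RYGB_CL against RYGB_AL. With number 19 and Sham_OLE 4 both out, an alternative added after seeing the data, 3 members were called in glucotonic and 2 in non-glucotonic sections against sham. The samples left out were extremes for Ddit3 and Calr, so no conclusion is drawn from these counts.

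Same-numbered segments of the first cohort deviated together only weakly (r of -0.0481 to 0.275 after bypass and 0.0295 to 0.0869 in sham rats), so the numbers were not taken as pairs. The replicate block left 1 member called for Sham_IL against Sham_JEJU (Xbp1), with Atf4 at an adjusted p of 0.0679 (edgeR), and Atf4 called for RYGB_CL against RYGB_AL (log2 -0.95, adjusted p = 0.0318, edgeR). It moved the IDs called from 1489 to 688 and from 1504 to 907. In the OLE cohort the block changed no other call than the 29 IDs given above, or 6 IDs without number 19.

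With lane 7 as a covariate, Hsp90b1 was -0.052 and Asns -0.047 in glucotonic sections against sham, and -0.020 and -0.068 in non-glucotonic sections. Without number 19, Asns was -0.12 and -0.10 against sham, and -0.020 between the sections (-0.014 with the replicate block). With Sham_OLE 4 out as well, Asns was -0.31 and -0.30 against sham and -0.018 between sections, and Pdia4 was 0.027 and 0.015, with Hspa5 at 0.091 and Xbp1 at 0.018 in non-glucotonic sections.

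With 1 library left out, log2 changes whose sign turned ranged as follows. Calr was -0.21 to 0.28 for RYGB_AL against Sham_JEJU. For the limb difference Hspa5 was -0.37 to 0.042 and Hsp90b1 -0.20 to 0.31. Asns was -0.29 to 0.35 for RYGB_CL against Sham_IL and -0.014 to 0.62 for Sham_IL against Sham_JEJU. In glucotonic sections against sham, Hspa5 was -0.066 to 0.20, Hsp90b1 -0.066 to 0.088, Pdia4 -0.25 to 0.0091 and Asns -0.13 to 0.33. In non-glucotonic sections, Hspa5 was -0.21 to 0.060, Hsp90b1 -0.042 to 0.11, Xbp1 -0.40 to 0.099 and Asns -0.16 to 0.30. Between sections, Hsp90b1 was -0.097 to 0.064, Pdia4 -0.031 to 0.074 and Asns -0.16 to 0.17.

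IDs called moved more than members. For RYGB_AL against Sham_JEJU they were 1237, 1978 with DESeq2 and 484 to 1212 with 1 library out. The same counts were 0, 93 and 0 to 56 for RYGB_CL against Sham_IL (1 with no filter), and 98, 533 and 8 to 127 for the limb difference. They were 1489, 2515 and 235 to 1580 for Sham_IL against Sham_JEJU, and 1504, 2693 and 396 to 2237 for RYGB_CL against RYGB_AL (432 with only its groups). For glucotonic sections against sham they were 5, 484 and 0 to 103 (28 with no filter, 0 with only its groups or with lane 7, 31 with number 13 apart, 1862 without number 19, 4025 without Sham_OLE 4 as well). For non-glucotonic sections they were 0, 26 and 0 to 3 (157 and 2073 in those last settings), and between sections 0, 3 and 0 to 1.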
